A study of Mus musculus with 12 samples.

Results

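Levels of confluence were compared in C2C12, an established mouse myoblast line. The line divides in rich serum and fuses into multinucleated myotubes when it is crowded and serum is withdrawn. Arrays of myoblasts at 95% confluence (3 arrays) were set against arrays of myoblasts at 50% confluence (3 arrays), chosen by sample title, which are 6 of the 12 arrays of the series. Both groups grew in DMEM with bovine calf serum, and the labels name no genetic change and no drug in any group. The labels used here give no time in culture and no batch for either group. Differences from those cannot be told apart from differences in confluence. The other 6 arrays hold C2C12 myotubes, 3 after 24 h and 3 after 48 h in horse serum with insulin and transferrin, started from fully confluent myoblasts. Those arrays served to estimate the spread of each gene and to place the myoblast levels along the 4 stages. Total RNA was labelled with biotin and hybridised to Illumina bead arrays. As a culture line, C2C12 lacks the vessels, nerves and immune cells of muscle tissue. Replicates are numbered in the labels, with no word on whether each was its own culture, so p-values measure only the spread between these samples, which may be technical.

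Crowding changes what an adherent cell senses. In cells spread on a dish, the coactivators YAP and TAZ enter the nucleus, join TEAD factors and drive genes such as Ccn1 and Ccn2, whereas cell contact and a smaller spread area activate the Hippo kinases that hold YAP and TAZ in the cytoplasm. Spread cells also build actin stress fibres, which release cofactors of SRF, a driver of cytoskeletal and contractile genes. In myoblasts, Id proteins, induced by BMP signalling, bind the partners of MyoD and restrain differentiation, and cells leave the division cycle before MyoD and myogenin switch on the contractile genes. Cholesterol is made by a chain of enzymes whose genes are driven by SREBP factors when membrane sterol runs low.

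Levels below are log2 intensities from the authors' normalized table, and 11883 genes were tested, each through whichever of its kept probes was brightest on average. A change is the mean of the 95% arrays minus the mean of the 50% arrays on the log2 scale, with its standard error (SE) from limma, and a gene was called at an adjusted p under 0.05 over all genes tested. Every array runs from 6.319 to 15.253 around a median of 6.684, so genes near that median are dim, and the change of a dim gene may be understated. Precision is limited by the number of arrays. Of 6 myoblast markers, 4 passed the filter on low values; over all 6, the 95% arrays averaged 9.20 to 9.60 and the 50% arrays 9.56 to 9.68. The 5 myotube markers averaged 6.99 to 7.94 on the 95% arrays and 9.08 to 9.56 on the 50% arrays. That difference rests mainly on Acta1, Mylpf and Tnnc2. Ckm was dim in both groups, with means of 6.48 at 95% and 6.67 at 50%, and the Myog groups overlapped. Markers of macrophages, endothelial cells, osteoblasts and adipocytes averaged 6.61 to 6.96 on the 95% arrays and 6.61 to 6.98 on the 50% arrays. Among those, 2 of 6 osteoblast markers with a probe, 4 of 6 adipocyte, 2 of 7 endothelial and 4 of 7 macrophage and leukocyte markers lay above the array median on none of the 6 arrays. The averages hide Pparg, an adipocyte marker well above the median on every array. It had 8.1, 8.4 and 8.7 on the 95% arrays, against 8.9, 9.0 and 8.8 on the 50% arrays. Pax7 and Myf5, markers of muscle progenitors, did not pass the filter, with means of 6.53 and 6.62 on the 95% arrays against 6.5 and 6.57 on the 50% arrays.

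The third 95% array stands apart. It correlated at 0.985 and 0.986 with 95% arrays 1 and 2, which correlated at 0.996 with each other, while the 50% arrays correlated at 0.997 to 0.998. Its correlation with the 50% arrays was 0.983 to 0.984, against 0.969 to 0.978 for 95% arrays 1 and 2. Its residual SD of 0.196 was the highest of the 12 arrays, the others lying at 0.0576 to 0.129. Results are therefore given with all arrays and, where they move, without that array.

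Gene expression differed widely between the confluence levels. Of 11883 genes, 4742 (39.9%) were called. Of all genes, 2244 (18.9%) were higher and 2498 (21.0%) were lower at 95% than at 50% confluence. At least 2-fold differences were fewer, with 91 genes higher (0.766%) and 133 lower (1.12%). The 3 arrays of each group did not overlap for 5192 genes (43.7%), of which 2490 were higher and 2702 lower at 95%. Without 95% array 3, 5826 genes (49.0%) were called, 2770 higher (23.3%) and 3056 lower (25.7%), and the count of at least 2-fold differences was 360, with 177 higher and 183 lower. Both fits called 4536 genes in the same direction and 0 genes in opposite directions, and the fits share all arrays but that one. With the 6 myoblast arrays fitted alone, 1480 genes (12.5%) were higher and 1770 (14.9%) lower. List counts given below without 95% array 3 are to be read against 23.3% higher and 25.7% lower among all genes. Those of the 6-array fit are to be read against 12.5% and 14.9%. The median change over all genes was 0.00. Called genes named below with no note kept their direction, their side of the threshold and a change within 1.5 times under every alternative, including leaving out each array in turn, the mean of a gene's kept probes and the fit of the 6 myoblast arrays.

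**Figure D1:**
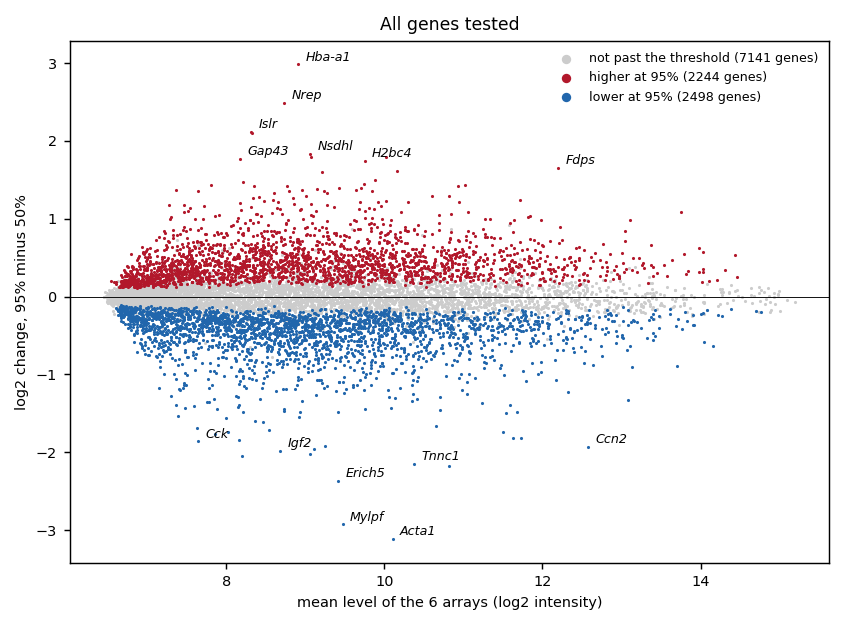
Change of each of the 11883 genes (95% minus 50% confluence, log2, vertical axis) against its mean level over the 6 myoblast arrays (log2 intensity, horizontal axis). Red points are the 2244 genes higher and blue points the 2498 genes lower at 95% confluence at an adjusted p under 0.05, and grey points are the 7141 genes not called.

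Array 3 of the 95% group was set against its 2 companions as a description. The genes used were called between arrays 1 and 2 of that group and the 50% arrays, a choice that itself favours larger distances on arrays 1 and 2 than on array 3 (the size of that effect was not computed). Of the 5826 genes called without array 3, it lay on the same side of the 50% mean for 4823 (82.8%). Among the 360 genes called at least 2-fold without it, 342 were on the same side. At the median of those 5826 genes it lay 53.8% of the distance between the 50% mean and the mean of 95% arrays 1 and 2. Over the 177 genes at least 2-fold higher the median was 41.2%, and over the 183 genes at least 2-fold lower it was 68.3%. The 12 genes on which it differed most from its companions were all lower on it, and they held contractile and matrix genes. Tnnt1, the slow skeletal troponin T, had 9.91, 10.22 and 7.33 on the 95% arrays, against 8.98, 8.65 and 8.55 on the 50% arrays. The change of Tnnt1 was 0.43 (adjusted p = 0.584) with all arrays and 1.34 without array 3. Ogn, the small matrix proteoglycan osteoglycin, had 12.06, 12.18 and 9.60 at 95% confluence, against 10.77, 10.27 and 10.19 at 50%, a change of 0.87 (adjusted p = 0.204), or 1.71 without array 3. Chrng, the gamma subunit of the embryonic acetylcholine receptor, had 9.71, 10.11 and 7.23, against 9.70, 9.30 and 9.30 at 50% confluence. For these 3 genes arrays 1 and 2 lay above the 50% arrays and array 3 below them.

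**Figure D2:**
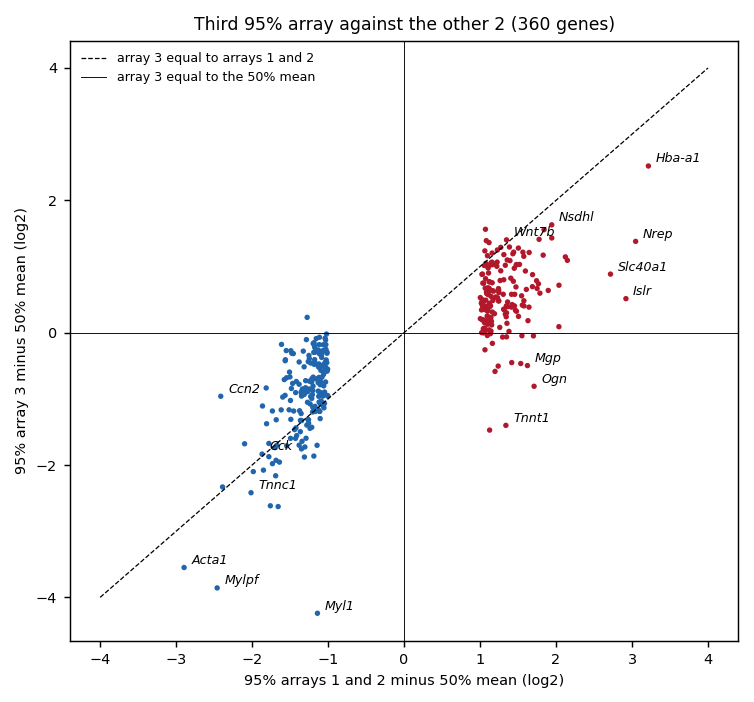
The 360 genes called at least 2-fold without 95% array 3, with the mean of 95% arrays 1 and 2 minus the 50% mean (log2, horizontal axis) and 95% array 3 minus the 50% mean (log2, vertical axis). Points on the dashed line moved equally far, and 342 of the 360 points lie on the same side of 0 on both axes.

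Genes of the contractile apparatus made up 6 of the 12 largest falls among genes called with and without 95% array 3 whose groups did not overlap. Acta1, skeletal muscle alpha-actin of the thin filament, had 8.40, 9.13 and 8.11 on the 95% arrays, against 12.06, 11.50 and 11.42 on the 50% arrays. The groups averaged 8.55 ± 0.52 at 95% and 11.66 ± 0.35 at 50% confluence (SD, n = 3 each), and every 95% array lay below every 50% array. The change of Acta1 was -3.11 (SE 0.23, adjusted p = 2.56e-06), or -2.90 without 95% array 3. Mylpf, the fast regulatory myosin light chain, had 8.21, 8.74 and 7.08 at 95% confluence, against 11.39, 10.72 and 10.69 at 50%. Its change was -2.93 (SE 0.33, adjusted p = 4.42e-05). The troponin C genes, which encode the calcium sensors of the thin filament, also fell, Tnnc1 by 2.15 and Tnnc2 by 2.05 on the log2 scale. Myl4, the embryonic myosin light chain, fell by 2.02, or by 1.01 with the mean of its probes. Myl1, an essential myosin light chain, had 10.13, 11.40 and 7.67 at 95% against 12.33, 11.60 and 11.79 at 50% confluence, a change of -2.17 (adjusted p = 0.0208) that was -1.14 without 95% array 3 and -1.16 with the mean of its probes. Myl1 was not called without 50% array 1 (adjusted p = 0.0688) or 50% array 3 (adjusted p = 0.0501), nor in the fit of the 6 arrays. In bulk RNA, fewer cells that hold these transcripts and less of them per cell cannot be told apart.

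Transcription of Acta1 is a textbook case of control by MyoD, SRF and TEAD factors, so its promoter is shown with the letters those factors are known for. The window runs from 250 bases before the RefSeq start site to 50 after it (GRCm38.p6, chr8:123894726-123895025, minus strand). Capitals mark, in order, an E-box of the form CAGCTG, a CArG box, which is the SRF motif, and CATTCC, the TEAD motif.
Acta1: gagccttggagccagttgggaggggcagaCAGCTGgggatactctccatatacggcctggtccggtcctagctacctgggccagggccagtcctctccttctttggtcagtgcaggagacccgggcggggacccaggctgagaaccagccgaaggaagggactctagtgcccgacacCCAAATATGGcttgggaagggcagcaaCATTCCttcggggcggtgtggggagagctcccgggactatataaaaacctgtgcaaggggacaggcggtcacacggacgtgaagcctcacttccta
Both strands were searched. The E-box starts 221, the CArG box 73 and the TEAD motif 46 bases before the start site, and none of the 3 matches overlaps another. Of 32851 mouse promoter windows of the same length, 16.3% hold CAGCTG, 1.63% the CArG box and 14.7% CATTCC. A match is only a match of letters.

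**Figure D3:**
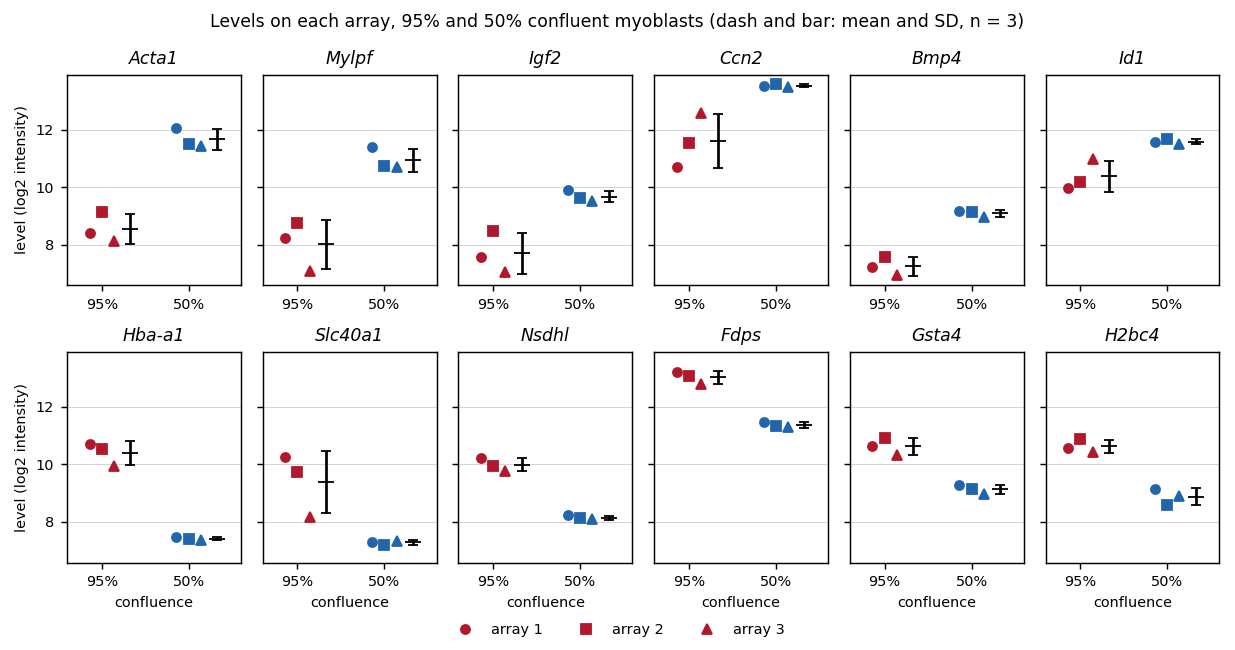
Level of 12 genes on each array (log2 intensity), with the 95% arrays left of the 50% arrays, points for single arrays, and the mean and SD (n = 3) as a dash and bar. The upper row holds genes that were lower at 95% confluence (Acta1, Mylpf, Igf2, Ccn2, Bmp4, Id1) and the lower row genes that were higher (Hba-a1, Slc40a1, Nsdhl, Fdps, Gsta4, H2bc4); for example Acta1 averaged 8.55 at 95% and 11.66 at 50%, and Nsdhl 9.98 at 95% and 8.15 at 50%.

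Of 40 sarcomere genes tested, 18 were lower and 1 was higher at 95% confluence, with a median of -0.23, against 21.0% lower and 18.9% higher over all genes. Without 95% array 3 the count lower was again 18 and 4 were higher, and leaving out each array gave 13 to 18 lower. The higher member was Tpm3, a tropomyosin also made in non-muscle cells, which changed by 0.47, or by 0.10 without a call with the mean of its probes. Genes of excitation-contraction coupling, which carry the membrane signal to calcium release, were lower in 7 of 19 and higher in 1 of 19, with a median of -0.07. The count higher was 4 without 95% array 3, and 0 without 95% array 1 or 2 or without 50% array 2 or 3. Ryr1, the calcium release channel, fell by 1.0 (0.53 with the mean of its probes), and Atp2a2, a calcium pump of the reticulum, fell by 0.70. Atp2a1, the fast-fibre calcium pump, changed by -1.06, or by -0.69 without 95% array 3. Of 20 genes of myoblast fusion, 7 were lower and 1 was higher (4 higher without 95% array 3). Itga7, the muscle laminin receptor subunit, fell by 0.61 and Adam12, a fusion-linked protease, by 0.59, while Cd9, a tetraspanin, rose by 0.46. Of 10 genes of the neuromuscular junction, 1 was higher and 2 were lower. Without 95% array 3 the counts were 5 higher and 1 lower, against 23.3% higher and 25.7% lower among all genes in that fit. The count lower was also 1 without 95% array 2 or without 50% array 1 or 2. Chrnd, the delta subunit of the acetylcholine receptor, rose by 0.76.

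Of 14 myogenic transcription factors tested, 5 were higher and 3 lower, with a median of 0.08, against 18.9% higher and 21.0% lower among all genes, so the share lower was near that of all genes. Myod1 itself had 9.16, 9.30 and 9.10 on the 95% arrays, against 9.91, 9.93 and 9.85 on the 50% arrays, and fell by 0.71 (SE 0.07, adjusted p = 2.46e-05). Myog, which encodes myogenin, had 7.14, 7.71 and 6.67 at 95% against 7.92, 7.67 and 7.71 at 50%, so its groups overlapped. The change of Myog was -0.59 (adjusted p = 0.0307), and -0.34 without 95% array 3 (adjusted p = 0.0507), where it was not called. Myog was also not called without 95% array 1 (adjusted p = 0.0732) or without 50% array 1, 2 or 3 (adjusted p = 0.10, 0.0540 and 0.0620). With the mean of its probes Myog changed by -0.27 (adjusted p = 0.0719), and the fit of the 6 arrays did not call it (adjusted p = 0.116). Mef2c changed by -0.09 (adjusted p = 0.523) and Ckm, muscle creatine kinase, by -0.18 (adjusted p = 0.201, or 0.0459 in the fit of the 6 arrays), and both were dim in myoblasts. Hes6, an antagonist of Hes1, rose by 0.85, and Mef2b by 0.50 (0.26 with its probes averaged). Igf2, the growth factor that myoblasts secrete as they differentiate, had 7.57, 8.46 and 7.04 at 95% confluence, against 9.89, 9.63 and 9.5 at 50%. Igf2 fell by 1.98 (SE 0.26, adjusted p = 0.000125), with no overlap between the groups. In the insulin-like growth factor axis, which holds Igf2, 6 of 14 genes were lower and 1 higher (3 higher without 95% array 3). Its binding proteins split, Igfbp6 rising by 0.86 while Igfbp3 and Igfbp7 fell by 0.63 and 0.54.

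Several genes of the Hippo pathway and its transcriptional output were lower in the crowded cells. Of 23 Hippo pathway components, 12 were lower and 2 higher, with a median of -0.16, and the counts without 95% array 3 were again 12 and 2. Leaving out each array gave 9 to 12 lower, and the count higher was 1 without 95% array 2 or without 50% array 1 or 2. Fat1, an atypical cadherin upstream of the kinases, had 10.00, 10.05 and 9.88 at 95% confluence, against 11.29, 11.44 and 11.59 at 50%, and fell by 1.46 (0.93 with the mean of its probes). Amotl2, an angiomotin that binds YAP, fell by 1.15, and Tead1 fell by 0.93, whereas its paralog Tead2 rose by 0.24. Yap1 changed by -0.25 (adjusted p = 0.0362), and was not called without 95% array 2 (adjusted p = 0.138) or 3 (adjusted p = 0.0778), nor without 50% array 1, 2 or 3 (adjusted p = 0.0539, 0.0930 and 0.101) or in the fit of the 6 arrays (adjusted p = 0.128). Of 18 YAP/TAZ-TEAD targets, 9 were lower and 4 higher (22.2%), with a median of -0.21, against 21.0% lower and 18.9% higher among all genes. The count higher was 2 without 95% array 1 or without 50% array 2 or 3.

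Ccn2, a matricellular protein also known as connective tissue growth factor, had 10.70, 11.55 and 12.58 on the 95% arrays, against 13.53, 13.59 and 13.50 on the 50% arrays. All 95% arrays were lower, but they spread widely (11.61 ± 0.94, against 13.54 ± 0.04 at 50%, SD, n = 3 each). Ccn2 changed by -1.93 (SE 0.32, adjusted p = 0.000657), or by -2.41 without 95% array 3. Ccn1, its paralog CYR61, had 8.70, 9.29 and 9.45 at 95% confluence, against 10.34, 10.26 and 10.46 at 50%, and changed by -1.20 (SE 0.16, adjusted p = 0.000119). Nuak2, a kinase, fell by 0.71. Among the targets that were higher, Tgfb2 rose by 0.58 and Nt5e by 0.38 (0.23 with the mean of its probes). Ankrd1, a muscle ankyrin repeat protein, changed by -0.33 (adjusted p = 0.0149), and its call was lost without 95% array 1 (adjusted p = 0.0619) and without 50% array 2 or 3 (adjusted p = 0.0669 and 0.0606). With the mean of its probes Ankrd1 changed by -0.18 (adjusted p = 0.157), and the fit of the 6 arrays did not call it (adjusted p = 0.0622). The promoter window of Ccn1, a gene known to be driven by YAP and TEAD, is shown with CATTCC in capitals (GRCm38.p6, chr3:145649936-145650235, minus strand).
Ccn1: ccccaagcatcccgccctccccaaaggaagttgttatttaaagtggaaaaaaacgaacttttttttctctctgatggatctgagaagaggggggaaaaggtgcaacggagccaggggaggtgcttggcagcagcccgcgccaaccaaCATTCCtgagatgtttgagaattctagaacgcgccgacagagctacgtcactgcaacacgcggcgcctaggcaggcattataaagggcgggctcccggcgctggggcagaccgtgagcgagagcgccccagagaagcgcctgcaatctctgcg
It holds 1 match, which starts 103 bases before the start site, and 14.7% of all windows hold such a match on either strand.

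Of 21 cadherins, catenins and other junction genes, 7 were lower and 1 was higher, with a median of -0.07, against 21.0% lower and 18.9% higher among all genes. Of these junction genes, 2 were higher without 95% array 3 or without 50% array 3. Cldn12, a claudin, fell by 0.68, Pkp2, a desmosomal plakophilin, by 0.46, and Afdn, the junction scaffold afadin, by 0.35. Cdh15, muscle cadherin, had 11.80, 11.98 and 10.97 at 95% against 11.88, 11.54 and 11.52 at 50% confluence. Its change was -0.06 (adjusted p = 0.845), or 0.25 without 95% array 3 (adjusted p = 0.0375). Cdh2, N-cadherin, changed by 0.22, which was not called with the mean of its probes or in the fit of the 6 arrays.

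Of 31 TGF-beta, BMP and Id genes, 18 were lower and 4 higher (median -0.34), against 21.0% lower and 18.9% higher among all genes. Leaving out each array gave 17 to 19 lower. Among the ligands, Bmp4 had 7.22, 7.58 and 6.92 on the 95% arrays, against 9.18, 9.12 and 8.96 on the 50% arrays. Bmp4 fell by 1.85 (SE 0.13, adjusted p = 1.56e-06), or by 1.02 with the mean of its probes, with no overlap between the groups. Inhba, the subunit of activin A, fell by 1.26. Grem1, an antagonist of BMP ligands, had 7.25, 7.66 and 8.60 at 95% against 8.82, 8.99 and 8.94 at 50%, and fell by 1.08. Tgfbr3, a co-receptor, rose by 0.27, and Tgfbi, a TGF-beta-induced matrix protein, rose by 0.45. Smad3, a signal transducer of TGF-beta, changed by 0.73 (adjusted p = 0.0140), and was not called without 95% array 1 (adjusted p = 0.0577) or 2 (adjusted p = 0.0605), nor in the fit of the 6 arrays (adjusted p = 0.0805). Of the Id genes, targets of the pathway, Id1 had 9.96, 10.19 and 10.99 at 95% confluence, against 11.57, 11.69 and 11.50 at 50%. Id1 fell by 1.20 (SE 0.19, adjusted p = 0.000503) and Id3 by 0.85, and on both, 95% array 3 lay nearest to the 50% arrays. Id2 fell by 0.81, or by 0.53 without 95% array 1.

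SRF-dependent cytoskeletal and smooth muscle genes were lower in 13 of 25 and higher in 3, with a median of -0.18. Among all genes, 21.0% were lower and 18.9% higher. In the SRF list 13 were also lower without 95% array 3, and leaving out each array gave 10 to 13 lower. The count higher was 0 without 95% array 2, and 1 without 95% array 1 or without 50% array 1 or 2. Actg2, smooth muscle gamma-actin, fell by 1.22, Flna, the actin crosslinker filamin A, by 0.96, and Tagln, the smooth muscle protein transgelin, by 0.95. Of 25 immediate early and ERK feedback genes, which report recent growth factor signals, 8 were lower and 1 higher, with a median of -0.13. The count higher was 3 without 95% array 1 and 2 without 50% array 1. Junb, an AP-1 subunit, had 9.24, 9.5 and 9.59 at 95% confluence, against 10.74, 10.67 and 10.52 at 50%, and fell by 1.20. Egr2, an early zinc finger factor, changed the other way by 0.58, or by 0.39 without 95% array 2.

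Of 28 matrix glycoproteins and proteoglycans, 8 were lower (28.6%) and 3 higher (10.7%), against 21.0% lower and 18.9% higher among all genes. Without 95% array 3 the counts were 9 lower and 7 higher, against 25.7% lower and 23.3% higher among all genes in that fit. Hspg2, the basement membrane proteoglycan perlecan, fell by 1.5, and Fbln2, fibulin 2, fell by 1.67 (0.85 with the mean of its probes). Fn1, fibronectin, fell by 0.97 and Tnc, tenascin C, by 0.92, or by 0.53 and 0.42 with the mean of their probes. Thbs2, thrombospondin 2, rose by 0.56 and Fbln1 by 0.53. Of 19 collagen genes, 6 were higher and 6 lower, and the count higher was 3 without 95% array 1, 2 without 50% array 1 and 3 without 50% array 2. Col8a1, Col6a2 and Col4a1 fell by 0.63, 0.57 and 0.44. In the other direction, Col3a1, Col1a1 and Col4a5 changed by 0.70, 0.50 and 0.46. The fit of the 6 arrays called none of these (adjusted p = 0.120, 0.116 and 0.115). Among 20 lysyl oxidases, metalloproteinases and their inhibitors, 5 were higher and 7 lower, and the count higher was 3 without 95% array 1 or 2 or 50% array 3, and 1 without 50% array 2. Timp2, a metalloproteinase inhibitor, fell by 0.77. Adamts4, a metalloproteinase, changed the other way by 0.67 and was not called in the fit of the 6 arrays (adjusted p = 0.102). Of 16 integrin genes, 4 were higher and 6 lower, and the count higher was 2 without 95% array 1 or 2 or 50% array 2. Itgb7 rose by 1.20 while Itgb6 fell by 1.29, both beta subunits.

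DNA replication genes were lower on 95% arrays 1 and 2, and close to the 50% level on array 3 at the list's median. Against 21.0% lower and 18.9% higher among all genes, 24 of 43 genes of DNA replication and G1/S were lower and 1 higher (median -0.31). Without 95% array 3, 36 were lower and 0 higher (median -0.45), whereas 14 were lower without 95% array 1 or 2 and 15 without 50% array 3. Set against the 50% mean, the list's median was -0.50 on 95% array 1, -0.40 on array 2 and -0.05 on array 3. The higher member, Gins2, changed by 0.31 and was not called without 95% array 3, when any 1 of the 50% arrays was left out, with the mean of its probes or in the fit of the 6 arrays. Pole, the catalytic subunit of polymerase epsilon, had 7.84, 7.97 and 8.06 at 95% confluence, against 8.98, 8.96 and 9.08 at 50%, and fell by 1.05. Orc6, a subunit of the origin recognition complex, fell by 0.92, and Chaf1a, a histone chaperone of the fork, by 0.89. Rrm2, the ribonucleotide reductase subunit that limits nucleotide supply, fell by 1.02, or by 0.37 with the mean of its probes. 

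Of 37 genes of mitosis and G2/M, 8 were higher (21.6%) and 9 lower (24.3%), near the 18.9% and 21.0% of all genes. Without 95% array 3 these counts were 7 and 18, against 23.3% and 25.7% of all genes in that fit. Espl1, the separase that opens cohesin rings, fell by 1.04, Top2a, a topoisomerase, by 0.85 and Foxm1, a driver of mitotic genes, by 0.43. In the same list Ndc80, of the outer kinetochore, rose by 0.62, Kif22, a chromokinesin, by 0.47 and Plk1, the polo kinase, by 0.39. The G1 cyclins, kinases and E2F factors were higher in 3 of 13 and lower in 6. Ccnd1, the serum-induced cyclin D1, had 12.69, 12.53 and 12.97 at 95% confluence, against 13.31, 13.49 and 13.44 at 50%, and fell by 0.69 (SE 0.11, adjusted p = 0.000389). Ccnd2 rose by 1.01 (0.46 with its probes averaged) and E2f2 by 0.52, while Tfdp1, the E2F partner, fell by 0.60. Of 16 CDK inhibitors and exit genes, 4 were higher (2 without 95% array 2) and 4 lower. Cdkn1b, which encodes p27, rose by 0.30, and Cdkn2c, which encodes p18, rose by 0.61. Cdkn1a, which encodes p21, had 12.31, 12.30 and 11.81 at 95% against 11.87, 11.95 and 11.90 at 50%. Its change was 0.23 (adjusted p = 0.131), or 0.39 without 95% array 3 (adjusted p = 0.000129). Cdkn1c, which encodes p57, changed by 0.24 (adjusted p = 0.172), or by 0.37 without that array (adjusted p = 0.0114).

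Of 20 growth arrest and quiescence genes, 2 were higher and 6 lower, against 18.9% higher and 21.0% lower among all genes. The count higher was 9 without 95% array 3 and 1 without 95% array 1 or without 50% array 2 or 3. Gas6, a ligand first found in arrested fibroblasts, fell by 1.05. Of 17 p53 targets, 4 were higher and 6 lower, and the count higher was 2 without 95% array 2 or without 50% array 2 or 3. Of the 6 lower members, Zmat3 and Phlda3 fell by 0.70 and 0.60. Ribosome biogenesis genes were lower in 13 of 29 and higher in 0, with a median of -0.39. The count lower was 25 without 95% array 3 (median -0.60) and 7 without 95% array 1 or 2. Against the 50% mean, the list's median was -0.61 on 95% array 1, -0.58 on array 2 and 0.09 on array 3. Rrp12, a ribosome assembly factor, was below every 50% array on all 95% arrays, with 9.23, 9.21 and 10.37 at 95% confluence, against 10.64, 10.82 and 10.89 at 50%, and a fall of 1.18. Polr1b, a subunit of RNA polymerase I, fell by 0.96, and Heatr1, a nucleolar factor of rRNA transcription, by 0.88. Of 36 cytosolic ribosomal protein genes, 7 were higher (19.4%) and 5 lower (13.9%), near and below the shares of all genes. The count lower was 2 without 95% array 2, 3 without 50% array 1 and 2 without 50% array 2 or 3. Of 18 cytosolic aminoacyl-tRNA synthetases, 4 were lower (22.2%, near the share of all genes, and 8 without 95% array 3) and 1 was higher. That count higher was 2 without 95% array 2, and 0 without 95% array 3 or without 50% array 2 or 3. Among all genes, 25.7% were lower and 23.3% higher without 95% array 3.

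Most genes of cholesterol synthesis were higher at 95% confluence. Of 18 genes tested, 15 were higher and 0 lower at 95% confluence, with a median of 0.49, against 18.9% of all genes higher. The fits that left out each array gave 14 to 16 higher, the fit of the 6 arrays 15, and for 17 genes all 95% arrays lay above all 50% arrays. Nsdhl, a sterol dehydrogenase late in the chain, had 10.23, 9.95 and 9.78 on the 95% arrays, against 8.22, 8.13 and 8.09 on the 50% arrays. Nsdhl averaged 9.98 ± 0.23 at 95% and 8.15 ± 0.07 at 50% confluence (SD, n = 3 each) and rose by 1.84 (SE 0.11, adjusted p = 6.64e-07). Fdps, which makes farnesyl diphosphate, had 13.22, 13.07 and 12.78 at 95% confluence, against 11.48, 11.34 and 11.29 at 50%. Fdps rose by 1.66 (SE 0.09, adjusted p = 4.92e-07), or by 0.77 with the mean of its probes. Cyp51, the lanosterol demethylase, rose by 1.12, and Mvd, a decarboxylase of the mevalonate pathway, by 0.86. All 3 arrays of the 95% group took part, with list medians against the 50% mean of 0.59 on array 1, 0.45 on array 2 and 0.52 on array 3.

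The promoter window of Nsdhl is shown because its transcript had the largest rise in the list (GRCm38.p6, chrX:72918271-72918570, plus strand). Capitals mark CCAAT on either strand, the motif of NF-Y, a factor known to act beside SREBP at sterol genes.
Nsdhl: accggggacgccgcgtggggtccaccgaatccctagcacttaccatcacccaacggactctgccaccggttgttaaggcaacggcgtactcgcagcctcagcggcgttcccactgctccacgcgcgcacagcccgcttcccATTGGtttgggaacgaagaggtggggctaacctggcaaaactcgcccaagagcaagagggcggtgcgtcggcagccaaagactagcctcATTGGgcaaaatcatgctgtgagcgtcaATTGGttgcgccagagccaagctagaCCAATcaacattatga
It holds 4 matches, of which 2 start before and 2 after the RefSeq start site, and 37.4% of all windows hold at least 1. Of 15 fatty acid synthesis genes, 6 were higher and 1 was lower (2 lower without 50% array 3), with a median of 0.13. Among all genes, 18.9% were higher and 21.0% lower. The desaturases led, with Fads2 up by 1.32, Scd2 by 1.17 and Scd1 by 1.03, while Srebf1, which encodes the SREBP-1 factor itself, fell by 0.34.

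Hba-a1, an alpha-globin subunit of haemoglobin, had the largest rise among the genes called with and without 95% array 3 whose groups did not overlap. It had 10.72, 10.54 and 9.94 on the 95% arrays, against 7.48, 7.41 and 7.36 on the 50% arrays. Hba-a1 averaged 10.40 ± 0.41 at 95% and 7.42 ± 0.06 at 50% confluence (SD, n = 3 each) and rose by 2.98 (SE 0.15, adjusted p = 3.29e-07). Alpha-globin has near-identical copies, so the probe may report more than that copy. Slc40a1, ferroportin, the iron exporter of the cell membrane, had 10.26, 9.73 and 8.16 at 95% confluence, against 7.30, 7.20 and 7.33 at 50%. Slc40a1 rose by 2.11 (SE 0.38, adjusted p = 0.00100), with widely spread 95% arrays (9.38 ± 1.09, against 7.28 ± 0.07 at 50%, SD, n = 3 each). Of 9 genes of alpha-globin and iron handling, 4 were higher and 2 lower, against 18.9% higher and 21.0% lower among all genes. Tfrc, the transferrin receptor that imports iron, fell by 0.77, and Fech, which inserts the iron that makes haem, rose by 0.63 (0.35 with its probes averaged). Nrep, a neuronal regeneration protein, had 10.90, 10.18 and 8.87 at 95% confluence, against 7.61, 7.35 and 7.51 at 50%, and rose by 2.49. Islr, an immunoglobulin-domain protein known from mesenchymal cells, rose by 2.12 (1.18 with its probes averaged), and Gap43, a growth cone protein, by 1.77. Idh1, cytosolic isocitrate dehydrogenase, rose by 1.80, and Gsn, the actin-severing gelsolin, by 1.80 (0.86 with the mean of its probes). H2bc4, Uap1l1 and Lrrc17 rose by 1.75, 1.61 and 1.6. Among the other deep falls, Cck, the peptide hormone cholecystokinin, had 6.62, 6.79 and 6.74 at 95% confluence, against 8.59, 8.62 and 8.52 at 50%. Its 95% levels lay near the median of all probes, and it fell by 1.86 (SE 0.05, adjusted p = 4.53e-09), a size that may be understated. Erich5, Tiam1, a Rac activator, and Rhbdl2, a rhomboid protease, fell by 2.37, 1.96 and 1.93.

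Glutathione transferases had the largest rises in the oxidative stress list, of which 7 of 21 genes were higher and 4 lower. Among all genes, 18.9% were higher and 21.0% lower. Gsta4, a glutathione transferase that clears lipid aldehydes, had 10.62, 10.93 and 10.34 at 95% confluence, against 9.28, 9.13 and 8.97 at 50%. Gsta4 rose by 1.5 (SE 0.13, adjusted p = 5.80e-06) and Gstm2 by 1.21. Nfe2l2, the NRF2 factor that drives such genes, rose by 0.84, while Gpx3, a secreted peroxidase, fell by 0.82.

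Interferon response genes were higher in 9 of 29 and lower in 1 (median 0.19), against 18.9% higher and 21.0% lower among all genes. The count higher was 19 without 95% array 3 and 5 without 95% array 1, and the list's median against the 50% mean was 0.34 on array 1, 0.21 on array 2 and 0.01 on array 3. Gbp2, a guanylate-binding protein, had 8.12, 7.71 and 7.07 at 95% confluence, against 6.80, 6.86 and 6.80 at 50%, and rose by 0.81. Ifi35 rose by 0.54. Of 20 chemokines and cytokines, 3 were higher and 7 lower. Csf1, the growth factor of macrophages, had 9.44, 9.62 and 10.00 at 95% confluence, against 11.02, 11.02 and 11.03 at 50%, and fell by 1.34. Cx3cl1, the membrane chemokine fractalkine, fell by 1.19, while Ccl9 and Il33 rose by 1.48 and 0.83. Lysosomal genes were higher in 8 of 31 (14 without 95% array 3) and lower in 1 (2 without 95% array 1 or 2 or 50% array 3). Among all genes, 23.3% were higher without 95% array 3. Grn, progranulin, rose by 0.76 and Neu1, a sialidase, by 0.62.

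Of 28 Wnt pathway genes, 5 were higher (17.9%) and 4 lower (14.3%), near and below the 18.9% and 21.0% of all genes. Ligands had the largest changes among these Wnt genes. Wnt7b had 8.30, 7.75 and 8.08 at 95% confluence, against 6.64, 6.71 and 6.68 at 50%, and rose by 1.37. Wnt10a rose by 1.14, while Sfrp2, a secreted Wnt antagonist, fell by 0.52. Of 17 Notch pathway genes, 3 were higher and 1 lower, and without 95% array 3 these were 5 and 2 (2 lower also without 95% array 2). Dtx4, an E3 ligase of the pathway, rose by 1.10 and Hey1, a target, by 0.62, whereas Hes1 changed by 0.16 (adjusted p = 0.147). Of 11 imprinted genes, 4 were higher and 1 lower, with Mest up by 0.84 and Peg3 up by 1.09 (0.53 with its probes averaged).

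Among metabolic lists, 12 of 31 genes of glycolysis and hypoxia were higher and 4 lower (2 lower without 50% array 3). Over all genes, 18.9% were higher and 21.0% lower. Pfkp, the platelet-type phosphofructokinase, rose by 1.23 and Ndrg1 by 0.59, while Vegfa, the angiogenic factor, fell by 1.0. Of 37 genes of mitochondrial respiration, 12 were higher and 4 lower (2 lower without 95% array 1 or 50% array 2), with a median of 0.08. Ndufa10 and Ndufs8, complex I subunits, rose by 0.60 and 0.45, and Cox6a2, the muscle form of a complex IV subunit, fell by 0.68. Endoplasmic reticulum chaperones split, with 7 of 18 higher and 6 lower (3 lower without 95% array 3 or 50% array 3). Xbp1, a factor of the unfolded protein response, rose by 0.66 and Calr, calreticulin, by 0.52, while Herpud1 and Hyou1 fell by 0.70 and 0.65. Of 22 genes of the amino acid stress response, 6 were higher and 3 lower (6 lower without 95% array 3), with Ddit3 up by 0.71 and Atf5 by 0.64. Heat shock genes were lower in 7 of 19 and higher in 2 (1 without 95% array 2 or 50% array 3), with Dnajb1, a cochaperone, down by 0.69. Proteasome subunits were higher in 6 of 27, near the share of all genes, and lower in 3. Of 16 Polycomb and chromatin genes, 5 were higher and 4 lower, with the linker histone H1f2 up by 1.44 and Hmgb2 by 0.85. All 4 proliferins tested were higher with all arrays, but only 2 or 3 were when any 1 array was left out. The count was 2 without 95% array 2 or without 50% array 1. Prl2c2 changed by 0.29 and lost its call whichever array was left out (adjusted p = 0.0603 to 0.150). Proliferin sequences are alike, so their probes may not be separate measurements. Prl2c3 rose by 0.57. Reference genes were higher in 1 of 10 and lower in 2, and the count higher was 2 without 95% array 3 and 0 without 95% array 2 or when any 1 of the 50% arrays was left out.

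Few genes of the other marker lists passed the filter on low values. Of 4 adipocyte markers, Lpl, lipoprotein lipase, rose by 1.39 and Pparg fell by 0.52 (0.26 with the mean of its probes). Of 3 osteoblast markers 1 was lower, Sp7, by 0.39, and 1 was higher, which was not called without 95% array 1 or when any 1 of the 50% arrays was left out. Of 5 endothelial markers Egfl7 was higher, by 0.57 (0.25 with the mean of its probes), and of 3 macrophage and leukocyte markers Cd14 was higher, by 0.25. The part of other cell types in the changes above was not tested.

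**Figure D4:**
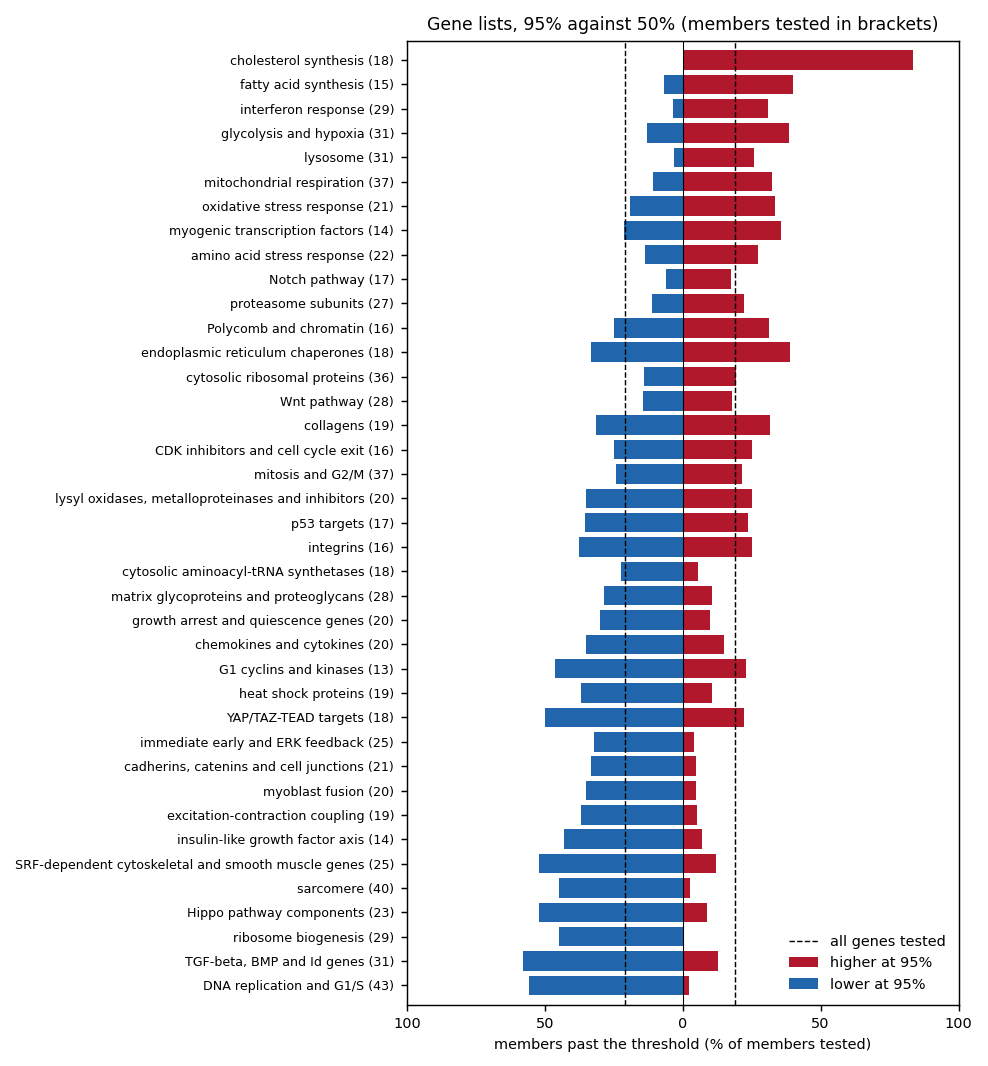
Percent of the tested members of 39 gene lists that were higher (red bars, to the right) and lower (blue bars, to the left) at 95% confluence, with dashed lines at the 18.9% and 21.0% of all 11883 genes. Cholesterol synthesis, with 15 of 18 higher, and TGF-beta, BMP and Id genes, with 18 of 31 lower, reach far past the lines.

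Along the 4 stages, Acta1 was lowest at 95% confluence and highest in the myotubes. It averaged 11.66 at 50% confluence, 8.55 at 95% confluence, 14.41 at 24 h and 14.82 at 48 h. Igf2 had the same order of means, at 9.67, 7.69, 12.18 and 13.96, and Myod1 was likewise lowest at 95% confluence and highest at 48 h, at 9.89, 9.19, 9.78 and 10.64, with its 50% and 24 h means close together. Id1, at 11.58, 10.38, 10.39 and 8.54, was lowest at 48 h, with equal means at 95% and 24 h within their spread. Ccn2 was low at 95% confluence and high again at 24 h, at 13.54, 11.61, 13.13 and 10.33. Rrm2 means were 11.29, 10.27, 9.98 and 9.21, and its 95% and 24 h arrays overlapped. Fdps was highest at 24 h, at 11.37, 13.02, 14.06 and 13.84, and Hba-a1 was highest at 95% confluence, at 7.42, 10.40, 8.30 and 7.5.

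Many genes that differed between the confluence levels also differed between the myotube times. The means compared share no array, but both sets of calls used the same spread of each gene, estimated from all 12 arrays. Genes with a small spread are thus favoured in both, and the size of that effect was not computed. Of the 2244 genes higher at 95% confluence, 1036 (46.2%) were lower at 48 h than at 24 h, which is 39.5% of the 2622 such genes, against 22.1% of all genes, and 230 (10.2%) were higher at 48 h. Of the 2498 genes lower at 95% confluence, 1156 (46.3%) were higher at 48 h than at 24 h, which is 42.7% of the 2706 such genes, against 22.8% of all genes, and 376 (15.1%) were lower at 48 h. The second principal component, with 18.9% of the variance, follows the same split. On it the 95% arrays scored -19.6, -16.6 and -4.58 and the 24 h arrays -19.7 to -18.5, whereas the 50% arrays scored 17.6 to 21.1 and the 48 h arrays 11.4 to 13.5. Srr, serine racemase, chosen after its values were seen, averaged 12.64 at 50% confluence, 10.83 at 95%, 10.08 at 24 h and 12.75 at 48 h. Hnrnpa2b1, an RNA-binding protein chosen in the same way, averaged 11.10, 12.33, 12.02 and 10.78. The labels used here give no date, slide or batch for any array, and the part of a batch shared by these groups was not tested.

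**Figure D5:**
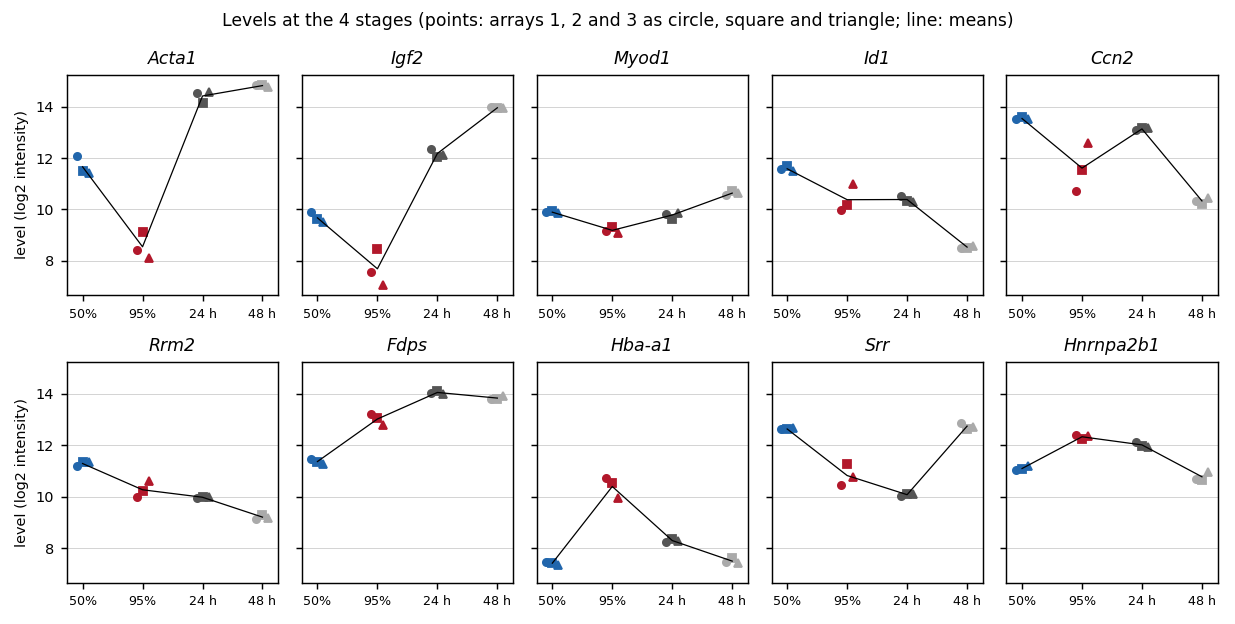
Level of 10 genes (log2 intensity, vertical axis) on each array at 50% confluence, 95% confluence, 24 h and 48 h of differentiation, from left to right, with 3 points per stage and a line through the stage means. Acta1 dips to 8.55 at 95% confluence, Hba-a1 peaks there at 10.40, and Srr and Hnrnpa2b1 have their 95% and 24 h means on the same side of their 50% and 48 h means.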

How the data were processed

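Illumina bead arrays of C2C12 total RNA were analysed from the normalized table the authors deposited, read here as log2 intensity. RMA and lumi appear in the submitters' processing notes without a version or a stated role. All 12 columns hold the same values in another order, the mark of quantile normalization, and a plain log2 scale cannot be told from a variance-stabilized one. A table of signal before normalization names 24 columns by numbers that match no label, so these were not used, and detection p-values were not used.

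Of 45281 probes, 34885 had 1 gene, 18 several and 10378 none in the platform annotation, and 34807 symbols were looked up by gene identifier. A probe was kept if some group had all 3 arrays above their medians, which left 19403 probes of 11883 genes. Means of the 4 groups were fitted by limma (version 3.58.1, R version 4.3.3, functions lmFit and eBayes, 12 arrays, 8 residual and 3.59 prior degrees of freedom), with 2-sided Benjamini-Hochberg adjustment over all genes and a threshold of 0.05. The fit was checked on simulated data with known changes. Those data gave all arrays of a gene the same spread and no deviating array, so the check cannot cover these features of the 95% group. Because the 95% arrays varied more than the rest, SEs from the shared spread can be too small.

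Named genes were the 12 largest rises and falls called with and without 95% array 3 whose groups did not overlap, 23 fixed genes, up to 4 members each way per list, and the 12 genes on which 95% array 3 differed most from arrays 1 and 2. The text prints the clearest of these. The 48 gene lists, their members and the comparison were chosen with earlier results of these data known, and lists can share members. Lists are described by counts and medians, with no test. Promoters are RefSeq windows of 300 bases, available for 9591 of the genes tested. Alternatives covered the filter, the probe rule, the arrays fitted, the variance model, array weights, centring, a replicate block and each array left out.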

Additional observations from a re-analysis of the deposited data

How the results depend on the processing

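Leaving out each array in turn gave 3848 to 5826 genes called, 1788 to 2770 higher and 2060 to 3056 lower, and 179 to 360 changed at least 2-fold, 69 to 177 higher and 110 to 183 lower. The highest of these counts came without 95% array 3. Fitting the 6 myoblast arrays alone gave 1480 genes higher. With 95% array 3 left out of that fit too, 360 genes changed at least 2-fold, 177 of them higher, and array weights gave 152 higher. With the mean of each gene's probes, 85 genes fell at least 2-fold. Of the 4742 calls, 4439 were kept with no filter, 4179 with the mean of probes (30 in the opposite direction) and 3242 with the 6 arrays alone. With the mean of probes, Ccnd3 changed by 0.060 and Ccng1 by 0.32 (adjusted p = 0.0198), against -0.40 and -0.20. The median of the p53 targets was -0.025 with no filter. The 6 arrays alone gave 12 of 43 lower for DNA replication, 5 of 29 lower for ribosome biogenesis and 3 of 29 higher for the interferon response. With all 12 arrays these counts were 24, 13 and 9. Over all genes the 6-array fit called 14.9% lower and 12.5% higher, against 21.0% and 18.9% with all 12 arrays. The cause of these moves was not tested. A replicate block gave 4781 calls (2261 higher, 2520 lower), keeping 4592 of the 4742. Same-numbered arrays of the groups correlated at 0.33, -0.09 and 0.24 in their deviations, and not every array correlated best with its own number. Deviations cancel out within a group, and those of 95% array 3 were the largest, so these values cannot decide whether the arrays were paired. The numbers were not taken as pairs. Background correction from the table before normalization and a slide block could not be run.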

Other observations

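Replication-dependent histone genes, a group chosen after their values were seen, are given by core histone type, with no test between types, against 18.9% higher and 21.0% lower among all genes. Of 12 H2bc genes tested, 10 were higher at 95% confluence (9 without 95% array 3) with a median change of 1.14, and of 12 H4c genes 10 were higher (9 without that array) with a median of 0.41. Of 9 H3c genes 1 was higher, and of 15 H2ac genes 3 were higher and 2 lower, with a median of -0.19 (4 higher and 9 lower without that array). The H2ac genes reached a mean level of 15.10, near the top of the scale, and genes within a type are alike in sequence, so their probes may not be separate measurements.

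The span of the called genes in the RefSeq annotation also differed. The median span was 19.6 kb for genes higher at 95% confluence and 27.8 kb for genes lower, against 22.0 kb for all genes tested.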
